A study of Mus musculus with 12 samples.

Results

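The vascular endothelial growth factor (VEGF) system was followed in embryonic mouse humeri through 9 of the 15964 genes that had a probe set of their own: the ligand genes Vegfa, Vegfb, Vegfc and Pgf, the receptor genes Kdr, Flt1 and Flt4, and the neuropilin genes Nrp1 and Nrp2. Every probe set that the platform annotation assigned to 1 of these symbols alone was taken, which gave 17 of 36701 probe sets without controls, 11 on array type A, 3 on B and 3 on C. The humerus, the upper bone of the forelimb, was collected at stage E14.5, an embryonic stage in days, from wild-type embryos and from Runx2-null embryos, labelled Runx2 -/-. Each genotype had 2 RNA pools, numbered replicates 1 and 2, holding some 75 humeri each for wild type and some 60 each for Runx2-null, and every pool was hybridised to the 3 array types, 12 arrays in all. The labels give neither the null allele nor the strain, and no level of the targeted gene is given, so it is no check of the genotypes here. Pools of whole humeri mix cartilage, perichondrium, vessels and attached tissue, and in them fewer cells of a type and less RNA per cell cannot be told apart.

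VEGF-A made by hypertrophic chondrocytes, the enlarged cells of maturing cartilage, draws blood vessels into the cartilage model of a long bone, and bone-forming and matrix-resorbing cells arrive with them. VEGF-A signals mainly through KDR on endothelial cells, FLT1 binds VEGF-A, VEGF-B and PlGF (the product of Pgf), and FLT4 is the receptor of VEGF-C. Neuropilins are co-receptors without kinase activity that bind VEGFs and also class 3 semaphorins. RUNX2 is a transcription factor needed for osteoblasts and for the maturation of chondrocytes, and the comparison asks which of these components change in its absence.

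Values are MAS5 signals, linear array intensities scaled to the same trimmed mean on every array, and their precision is limited by the number of arrays, 2 per genotype and type. The 2 replicate numbers equal 2 scan batches, of which batch 1 used 3 µm pixels and 2 scans and batch 2 used 2.5 µm pixels and 1 scan, and each batch holds both genotypes. Counts of calls over the members are therefore given as planned, without a block, and from a fit that blocks on the replicate number. Values of single probe sets come mostly from the fit with the block, and some are also given inside each batch. On arrays A and B the hybridisation control probe sets separated the scan batches, with both arrays of batch 1 above both of batch 2 for 9 of 9 on A and 8 of 9 on B. On array C they separated the labelled genotypes, with both wild-type arrays above both Runx2-null arrays for 8 of 9 and 0 of 9 following the batch. The high controls on array C were thus those of the arrays labelled wild-type 1 and 2, in place of wild-type 1 and null 1 as on A and B. Whether the arrays labelled wild-type 2 and null 1 were exchanged on C was not tested, and if so the folds printed for C would not compare the genotypes. Values on C are given as labelled, no call on them is counted for the members or the lists, and each result is given on arrays A and B first. The words rose and fell are used for an adjusted p under 0.05 with the block on arrays A and B. Fold changes are Runx2-null minus wild type in log2(signal + pseudocount), with pseudocounts of 7, 13 and 10 on A, B and C, and understate the change of dim probe sets.

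Of the 17 probe sets, 13 from 8 genes passed the filter on dim signals, over the 40th percentile of the array on at least 2 of 4 arrays, and 11 of these were on arrays A and B. Nrp2 fell in the Runx2-null humeri, where wild-type signal was 3.46 times as high, and was the single member past the threshold with the block. That is 1 lower and 0 higher of 11, where 1.29% of the 15601 probe sets tested on these arrays were called lower and 0.904% higher. Without the block 0 of the 11 passed, where 0.0256% of all probe sets tested on these arrays were called. An unadjusted p under 0.05 was found for 1 of the 11 without the block (2.06% of all) and for 3 with it (14.8% of all). The 3 tested receptor genes had lower signals in the null pools on array A within both batches without passing, and the ligands were spread around no difference.

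**Figure D1:**
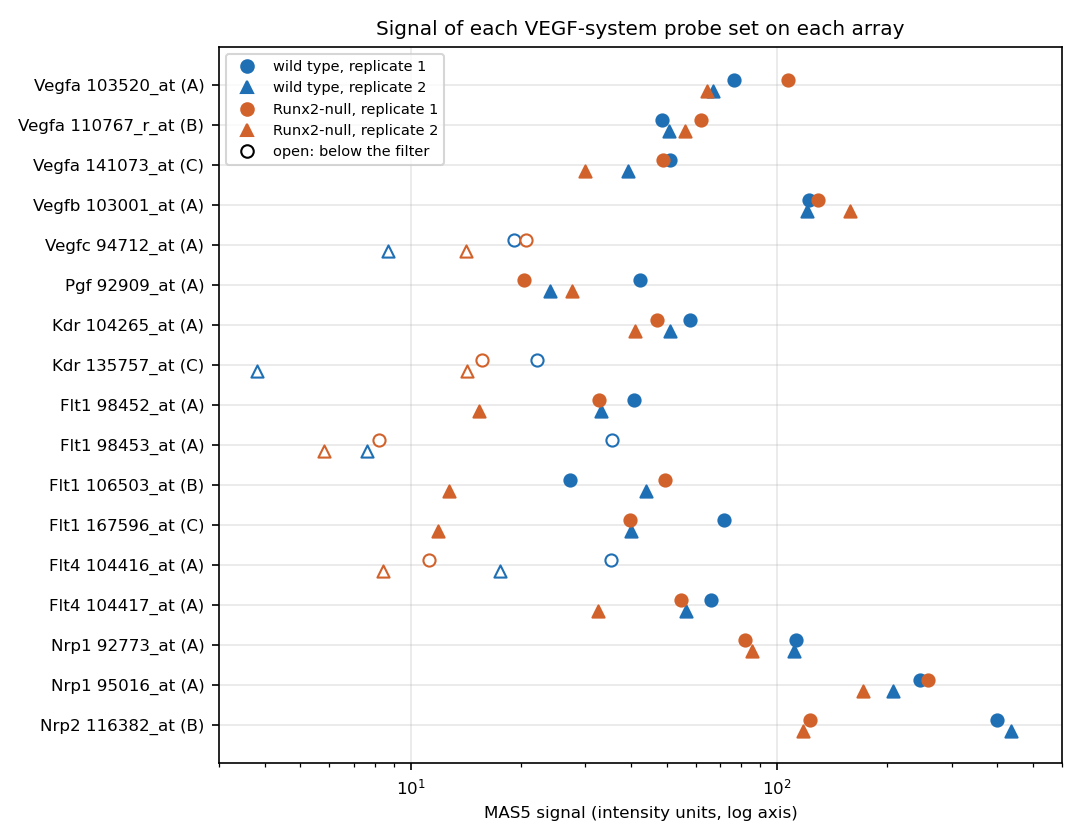
MAS5 signal in intensity units on a log axis for the 17 probe sets, with 1 point per array, wild type in blue, Runx2-null in orange, replicate 1 as circles and replicate 2 as triangles; open points did not pass the filter and the letter is the array type. The Nrp2 null arrays at 123.4 and 117.8 lie far left of the wild-type arrays at 399 and 435.8, while most other probe sets have interleaved or adjacent points.

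The Nrp2 gene lies on chromosome 1 of GRCm38.p6 (62703317 to 62818692) and Flt4 on chromosome 11 (49609679 to 49652739). The 250 bases that RefSeq gives before the start of each are printed because both encode receptors for VEGF-C and only the first passed the threshold. Capitals mark the GC box GGGCGG on either strand (CCGCCC on the other), and adjoining capitals are overlapping matches. Both genes are on the plus strand, at chr1:62703067-62703316 and chr11:49609429-49609678 of GRCm38.p6.
Nrp2: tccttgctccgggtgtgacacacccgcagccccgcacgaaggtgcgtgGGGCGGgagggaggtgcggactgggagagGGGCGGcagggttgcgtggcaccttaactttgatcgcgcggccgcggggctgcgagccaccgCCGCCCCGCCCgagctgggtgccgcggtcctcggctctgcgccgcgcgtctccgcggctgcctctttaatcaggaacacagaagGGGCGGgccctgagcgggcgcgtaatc
Flt4: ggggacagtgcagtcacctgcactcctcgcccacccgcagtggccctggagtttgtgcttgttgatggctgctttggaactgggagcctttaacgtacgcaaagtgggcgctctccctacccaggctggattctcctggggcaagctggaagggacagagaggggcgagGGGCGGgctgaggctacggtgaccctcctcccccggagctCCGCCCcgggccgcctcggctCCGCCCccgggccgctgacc
The Nrp2 window held 5 GC boxes and the Flt4 window 3. GC content was 72.4% for Nrp2 and 68.4% for Flt4, beside a median of 52.4% over all windows. Over the 9 genes RefSeq listed 11 such windows, of which 10 held a GC box, against 32.7% of 32851 windows of the same length in the mouse table. The core motif of RUNX proteins, TGTGGT on either strand (ACCACA on the other), was in 0 of the 11 windows and in 14.0% of all windows. The core of the hypoxia response element, ACGTG, or CACGT on the opposite strand, was in 1 of the 11, the downstream of 2 Vegfa windows, and in 16.6% of all. Some of the other windows lie within the annotated span of their gene, downstream of an earlier start. These are matches of letters in short windows, and say nothing about whether a factor binds there or elsewhere at the gene.

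Nrp2, the neuropilin that binds VEGF-C and semaphorin 3F and marks veins and lymphatic vessels as well as neurons, was read by 1 probe set, on array B. The wild-type pools had signals of 399 and 435.8, the Runx2-null pools 123.4 and 117.8. The groups were far apart, with less spread inside each genotype than between them. The means were 417 ± 26 (SD, n = 2) and 121 ± 3.96, a ratio of 3.46. Its log2 fold was -1.69 (SE 0.19 with the block, 95% interval -2.12 to -1.26, adjusted p = 0.00351), -1.59 within scan batch 1 and -1.78 within batch 2. Without the block the SE was 0.27 and the adjusted p = 0.123, and with the block but no variance trend the adjusted p was 0.154. Its unadjusted p without the block (0.000518) ranked 14 among the 15601 probe sets tested on arrays A and B. Among the 28 probe sets that fell on array B with the block (0.356% of those tested there), Nrp2 ranked 11 by the size of its fold, and it ranked 37 of 202 on arrays A and B. The probe set was bright, at percentile 86.8 of array B, and its log2 fold was -1.74 and -1.52 with pseudocounts at the 10th and 40th percentiles.

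Nrp1 (chromosome 8, 128358591 to 128505476), the co-receptor that strengthens the binding of VEGF-A to KDR, gave a different result on each of its 2 array A probe sets. The brighter had signals of 246.1 and 206.9 in the wild-type pools against 258.8 and 171.5 in the null pools. These overlapped, with a log2 fold of -0.10 (95% interval -0.36 to 0.17, adjusted p = 0.758 with the block). The other had 112.5 and 111.6 against 81.6 and 85.4, with both null arrays below both wild-type arrays. Its log2 fold was -0.40 (SE 0.15, 95% interval -0.72 to -0.07), with an unadjusted p = 0.0219 and an adjusted p = 0.202 from limma with the block. Without the block, as planned, limma gave an interval of -0.95 to 0.16 and an unadjusted p = 0.132. The interval of Nrp2 lies below that of either Nrp1 probe set; the difference between probe sets of different genes was not tested.

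**Figure D2:**
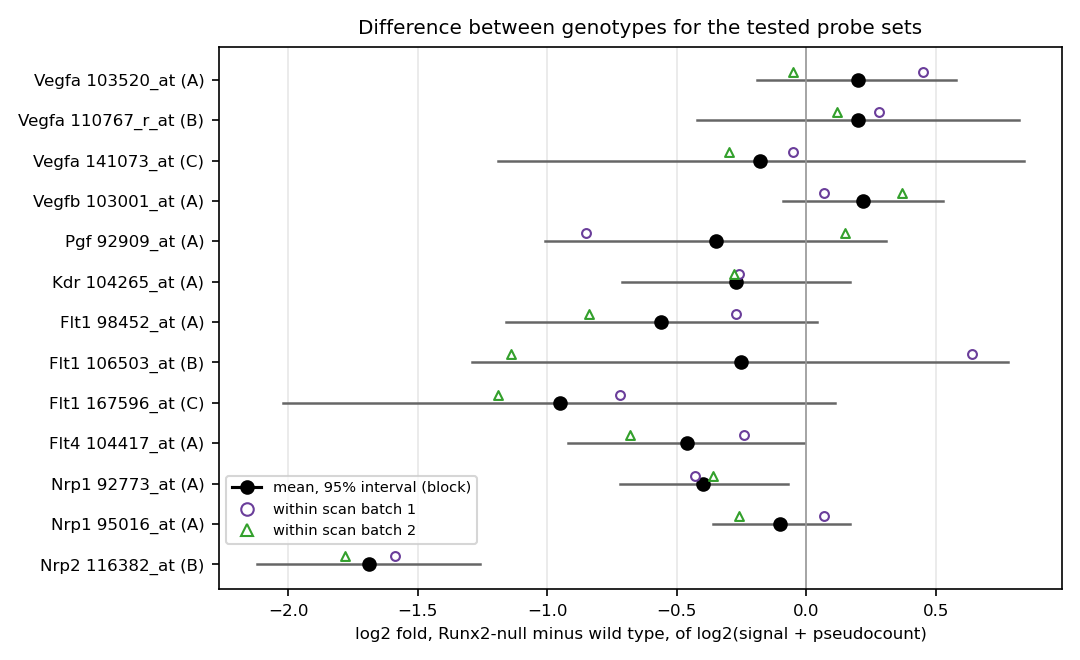
Log2 fold (Runx2-null minus wild type) of the 13 tested probe sets, with the mean as a filled point, its 95% interval from limma with the replicate block as a line, and the differences within scan batches 1 and 2 as open points; the letter is the array type. The interval of Nrp2, -2.12 to -1.26, is the farthest from 0, and those of Flt4 and of 1 Nrp1 probe set end just below it. Without the block the intervals of Flt4 and of that Nrp1 probe set include 0.

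Kdr (GRCm38.p6 chromosome 5, 75932827 to 75979072), the main signalling receptor of VEGF-A on endothelial cells, had signals of 57.8 and 51.2 in the wild-type pools against 47.2 and 40.9 in the null pools on array A. The groups did not overlap, but the difference was small, with a log2 fold of -0.27 (SE 0.21, 95% interval -0.71 to 0.17, adjusted p = 0.556 with the block) and -0.26 and -0.28 within the batches. Its array C probe set was below the filter, with 22.1 and 3.8 in the arrays labelled wild type and 15.7 and 14.3 in those labelled null.

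Flt4, the VEGF-C receptor of lymphatic and early venous endothelium, had 2 probe sets on array A. The brighter read 66.0 and 56.5 in the wild-type pools against 54.6 and 32.5 in the null pools. Every null array was below every wild-type array, with a log2 fold of -0.46 (SE 0.21, 95% interval -0.92 to -0.01, unadjusted p = 0.0451 and adjusted p = 0.283 with the block). In the planned limma fit, without the block, the interval was -1.29 to 0.36 and the unadjusted p = 0.213. The dimmer, below the filter, went the same way, with 35.3 and 17.5 against 11.2 and 8.4.

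Flt1 (chromosome 5, 147561604 to 147726438), which binds VEGF-A, VEGF-B and PlGF with little signalling of its own and is also made in a soluble form, had 4 probe sets that differed among themselves. On array A the tested one read 40.7 and 33.2 in the wild-type pools against 32.6 and 15.4 in the null pools, a log2 fold of -0.56 (SE 0.28, 95% interval -1.16 to 0.04, adjusted p = 0.335 with the block). A second one on A, below the filter, was high in 1 wild-type array, with 35.5 and 7.6 against 8.2 and 5.8. The array B probe set had 27.3 and 43.8 against 49.6 and 12.7, so its difference turned between batches, from 0.64 in batch 1 to -1.14 in batch 2. On array C as labelled the values were 71.8 and 40 against 39.7 and 11.9 (log2 fold -0.95, adjusted p = 0.34 with the block). The platform annotation does not say which transcript form each probe set reads, and no Flt1 probe set passed with or without the block.

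Vegfa (chromosome 17, 46016993 to 46032377), the ligand that hypertrophic cartilage releases, did not pass on any of its 3 probe sets. On array A the signals were 76.6 and 67.1 in the wild-type pools against 106.9 and 64.4 in the null pools, with the highest and the lowest value both in the null pools. The log2 fold was 0.20 (SE 0.18, 95% interval -0.19 to 0.58), 0.45 within batch 1 and -0.05 within batch 2. The array B probe set read 48.7 and 50.8 against 61.9 and 56.3, higher in both null arrays, with the same log2 fold of 0.20 and a wider interval of -0.42 to 0.82. On array C as labelled it read 51.0 and 39.2 against 48.8 and 30.0 (log2 fold -0.18, 95% interval -1.19 to 0.84). With the block, the intervals on arrays A and B leave room for a fall of 0.42 and a rise of 0.82 on the log2 scale. Without it they leave room for a fall of 0.58 and a rise of 0.98. Neither reaches the log2 fold of Nrp2, -1.69, in these pools of whole humeri. Both rest on 2 pools per genotype and on variances borrowed from other probe sets. A change confined to some of the cells was not tested.

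Vegfb (chromosome 19, 6982472 to 6987651), a ligand of FLT1, read 122.5 and 121.0 in the wild-type pools against 129.1 and 158.3 in the null pools. Both null arrays were higher, with a log2 fold of 0.22 (SE 0.14, 95% interval -0.09 to 0.53, adjusted p = 0.469 with the block). Pgf (chromosome 12, 85166637 to 85177785), another FLT1 ligand, read 42.3 and 24.1 against 20.4 and 27.6, and its difference turned between batches, from -0.85 to 0.15 (log2 fold -0.35, 95% interval -1.01 to 0.31). Vegfc (chromosome 8, 54077532 to 54186454), the ligand of FLT4, was below the filter, with 19.2 and 8.7 in the wild-type pools against 20.6 and 14.2 in the null pools, and was not tested. Signals this dim leave the level of Vegfc unmeasured in both genotypes.

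Grouped by role, on arrays A and B, 3 of 4 tested receptor probe sets and 2 of 3 neuropilin probe sets had both null arrays below both wild-type arrays, against 0 of 4 ligand probe sets. For the ligands 2 of 4 had both null arrays above. Over all 11 the counts were 5 below and 2 above, while 11.7% of all probe sets tested on these arrays lay below and 13.6% above in the same way. The 5 came from Kdr, Flt1, Flt4, Nrp1 and Nrp2, 1 probe set each. The median log2 fold was 0.20 for ligand, -0.37 for receptor and -0.40 for neuropilin probe sets, beside 0.01 over all probe sets tested on A and B. With 2 pools against 2 an exact two-sided permutation test of a single value cannot give a p below 0.333.

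**Figure D3:**
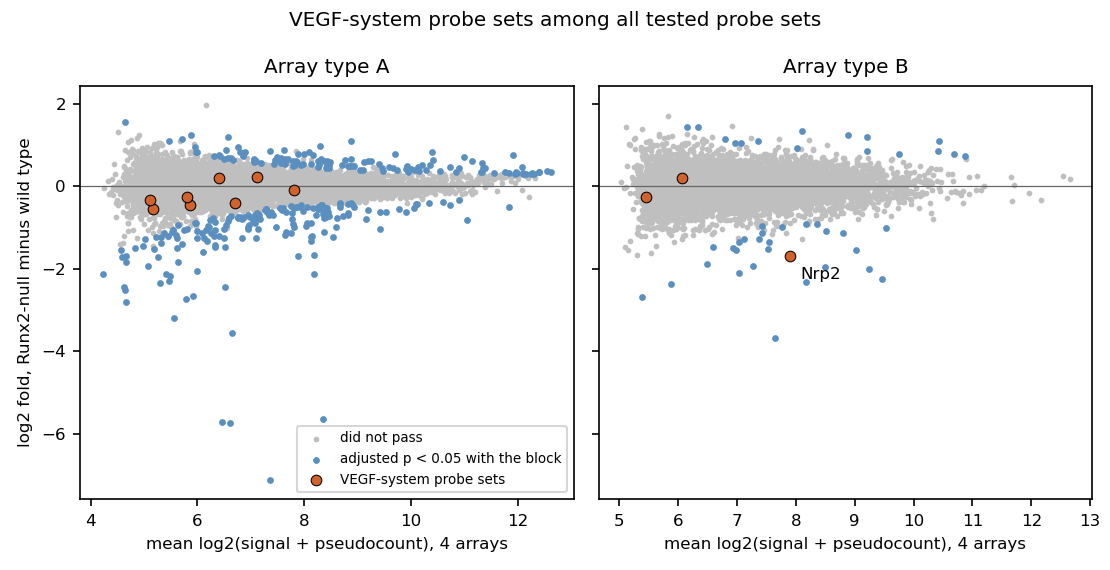
Log2 fold (Runx2-null minus wild type) against mean log2(signal + pseudocount) over 4 arrays for every probe set tested on array types A and B; grey points did not pass, blue points passed with the block and orange points are the VEGF-system probe sets. Nrp2 at -1.69 lies below the grey cloud, and the other 10 orange points lie inside it.

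The genes that pass on VEGF signals inside the cell showed no call. Each list gene was read from its brightest tested probe set of the 3 types, and lists were also counted, after the data were seen, with array C left out. In a list of 41 genes of VEGF signal transduction 26 were read on A or B, and none of these 26 passed in either direction, nor any of 28 with array C left out (median log2 fold of the 26 genes -0.06, and 0.04 and -0.09 within the batches). The lowest p-values belonged to Plcg2, a phospholipase C (41.4 and 22.3 against 17.0 and 6.3, log2 fold -1.08, adjusted p = 0.112 with the block), and Pik3r2, a regulatory subunit of PI3-kinase (-0.52, adjusted p = 0.159). Nos3, the endothelial nitric oxide synthase, was below the filter.

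Neuropilins pair with plexins to receive class 3 semaphorins, and from a list of 13 such genes 8 were read on A or B. Sema3b and Plxnd1 fell, 0 rose, and the other 6 were not past the threshold. With array C left out 11 were read, and Sema3d fell too, so that 3 fell and 0 rose (median log2 fold -0.12). Sema3b, a secreted semaphorin that binds neuropilins, read 51.1 and 32.5 in the wild-type pools against 7.0 and 5.9. The null values were at or below the pseudocount of 7, and its log2 fold of -1.83 became -1.07 with the pseudocount at the 40th percentile. The SE was 0.34, with an adjusted p = 0.0153 for the block fit, 0.372 for the plain fit and 0.073 for the block fit without the filter, and its other probe set was below the filter. Plxnd1, the plexin of endothelial cells and the receptor of semaphorin 3E, read 185.1 and 156.0 against 132.8 and 45.8. Both null arrays were lower, but unequally: the log2 fold was -1.04 (SE 0.21), -0.46 in batch 1 and -1.63 in batch 2, with an adjusted p = 0.024 for the block fit and 0.734 for the plain one. Its fold was -0.34 without null replicate 2 and without the block. With the block it did not pass with robust variances (adjusted p = 0.184) or when the filter was dropped (0.138). Sema3d, another secreted class 3 semaphorin, read 182.3 and 322.2 against 89.2 and 117.8 on array B, lower in both null arrays. Its log2 fold was -1.15 (SE 0.21), with an adjusted p = 0.0335 for the block fit, 0.418 for the plain one and 0.135 for the block fit adjusted within array types. It also did not pass when the filter was dropped (0.0613), and its fold was -0.76 without wild-type replicate 2 and without the block. Its brighter probe set, on array C as labelled, had -0.67 (adjusted p = 0.127 with the block). Sema3f, the semaphorin that prefers NRP2, was below the filter, with 36.3 and 14.2 against 27.1 and 9.6. Sema3c had a log2 fold of 0.55 (adjusted p = 0.24). The median of the 8 genes was -0.05, and 0.16 and -0.21 within the batches.

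Oxygen sensing through HIF, which turns on Vegfa, showed no call on arrays A and B. Of the 10 listed genes 8 had their brightest tested probe set on A or B, and none of these 8 passed (median log2 fold 0.07), nor any of the 10 when array C was left out (median 0.08). Hif1a, the oxygen-regulated subunit, read 1169.9 and 1523.2 against 1311.8 and 1535.6 (log2 fold 0.09, adjusted p = 0.635 with the block). The HIF prolyl hydroxylase gene Egln3, itself a HIF target, had 0.61 on the log2 scale on array B (72.2 and 122.5 against 119.1 and 190.1, adjusted p = 0.187 with the block). On array C as labelled it read 275.6 and 320.5 against 662.7 and 578.6, a log2 fold of 1.03 with an adjusted p = 0.0498 for the block fit (2.13% of the probe sets tested on C passed) and 0.142 for the plain one. The block fit gave 0.0551 with robust variances, 0.0502 adjusted within types, 0.131 with no filter and 0.0516 with the 10th percentile pseudocount, and an exchange of the 2 arrays would interleave the groups. Hif1an, which encodes a hydroxylase that restrains HIF, had -0.54 on array C as labelled (adjusted p = 0.221). Among 8 other angiogenic signals read on A or B, 0 passed (median -0.12), and 0 of 9 with array C left out; the platelet-derived growth factor gene Pdgfb had -0.56 (adjusted p = 0.188) and the matricellular gene Ccn1 had -0.30 (adjusted p = 0.391). Vegfd, the other FLT4 ligand, was below the filter with 4.3 and 16.8 against 20.3 and 19.0. Among 4 angiogenesis inhibitors read on A or B 1 fell (median -0.08), and likewise 1 of 6 with array C left out (median -0.03). It was Serpinf1, which encodes the antiangiogenic factor PEDF, with 242.0 and 324.9 against 129.5 and 191.6 (log2 fold -0.80, adjusted p = 0.00326 for the block fit and 0.564 for the plain one). A dimmer Serpinf1 probe set on array A went the other way, with 1.01 (adjusted p = 0.12). Tnmd, an angiogenesis inhibitor made in tendon, had -1.68 by the array C labels (adjusted p = 0.00595 for the block fit and 0.123 for the plain one).

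Markers of endothelial cells, which carry the VEGF receptors, showed no call. Arrays A and B tested 17 of 23 listed endothelial genes. None of these 17 passed with or without the block, 8 were lower and 3 higher within both batches, and the median log2 fold was -0.17, and -0.06 and -0.20 within the batches. For comparison, 28% of all probe sets tested on these arrays were lower within both batches and 32.1% higher. Their summed signals were 1974 and 1354 in the wild-type pools and 1787 and 1188 in the null pools, higher in batch 1 in both genotypes and lower in the null pool within each batch. The TGF-beta co-receptor gene Eng had the lowest p, with 366.3 and 249.6 against 286.9 and 180.7 (log2 fold -0.40 with an SE of 0.11, adjusted p = 0.0814 with the block), followed by Cdh5, the cadherin of endothelial junctions (-0.54, adjusted p = 0.104). Pecam1, the adhesion molecule CD31, had -0.09 (adjusted p = 0.853). Tek, Vwf and Gja4 were below the filter. Of the 5 lymphatic genes only Pdpn was tested, which cartilage and bone cells can also express, with 0.17 (adjusted p = 0.754); Lyve1 and Prox1 were near the bottom of the signal range in every pool, with 12.6, 1.9, 2.8 and 10.7 and with 2.6, 1.2, 8.5 and 2.1. Of 10 mural cell genes 0 passed (median -0.07), and the 2 with the lowest p were Rgs5 (0.62, adjusted p = 0.238) and Cspg4 (-0.40, adjusted p = 0.269). The part of endothelial or lymphatic cells in the Nrp2 result was not tested.

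Among the cell type lists, those of hypertrophic chondrocytes and osteoclasts held the most genes that fell. For comparison, 1.29% of all probe sets tested on arrays A and B were called lower with the block. The lists were chosen with earlier results of these data known. Arrays A and B tested 9 of 12 listed hypertrophic genes, and 8 of the 9 fell (2 without the block), with a median log2 fold of -1.47. Their summed signals were 3887 and 5086 in the wild-type pools against 637 and 482 in the null pools. Col10a1, the type X collagen gene, was below the filter and not tested, with 6.0 and 18.3 against 5.6 and 9.1. Ibsp (-7.13), Mmp13 (-5.72), Pth1r (-2.12) and Alpl (-3.55), genes of mineralising and maturing skeletal cells, had the lowest p. Of 12 listed osteoclast genes 4 were read on A or B, with sums of 1877 and 1951 against 374 and 477. Of these, 3 fell (1 without the block), the protease genes Mmp9 (-5.75) and Ctsk (-1.32) and the acid phosphatase gene Acp5 (-2.32). The other, Clcn7, had 0.08 (adjusted p = 0.837 with the block). With array C left out 5 genes were read, of which 3 fell and 2 were higher within both batches without passing (median -1.32). On array C as labelled Atp6v0d2 had 0.48 and Tcirg1 -0.25, and neither passed. Calcr, Itgb3 and Tnfrsf11a were below the filter. Fewer calls came from cartilage genes, where 1 of 10 fell (Hapln1, a cartilage link protein gene, -0.71, not called without the block; median -0.03), and from macrophage genes, where 0 of 8 passed (median 0.24). Of these 8, 4 were higher and 3 lower within both batches, C1qb (0.70, adjusted p = 0.0698) and C1qa (0.72, 0.0873) among the higher and Cd68 (-0.58, 0.107) and Cd14 (-0.40, 0.14) among the lower. None passed on A and B, with array C in or left out, among the genes read there, 9 skeletal muscle genes (median 0.04), 6 neural and Schwann cell genes (0.13; S100b 0.41, Gap43 0.42) and 6 erythroid genes (0.06; Hba-a1 -0.15, Tfrc 0.25). Muscle sums were 2347 and 2864 in batch 1, wild type and null, and 618 and 454 in batch 2. The 2 muscle genes with the lowest p were read on array C as labelled, and neither passed. Mylpf had 228.0 and 220.7 against 120.0 and 126.3 (-0.82, adjusted p = 0.132 with the block). Chrna1 had 77.1 and 87.5 against 39.2 and 30.5 (-1.05, adjusted p = 0.262 with the block). Whether any of these cell types carried the Nrp2 transcript was not tested.

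**Figure D4:**
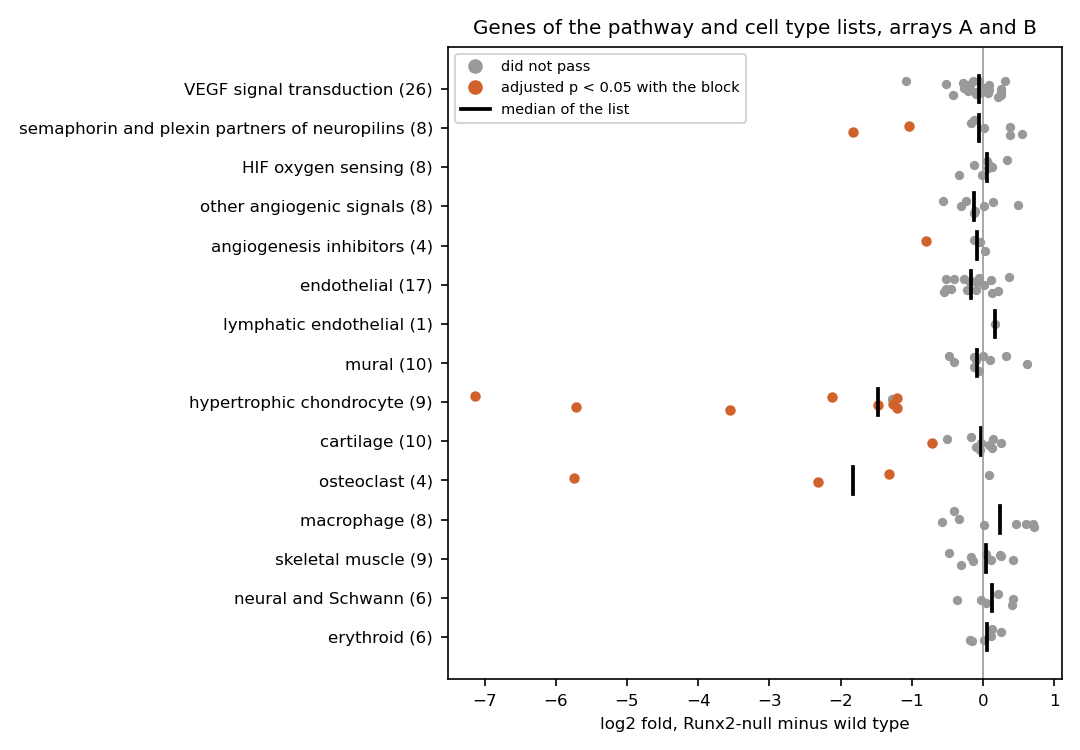
Log2 fold (Runx2-null minus wild type) of each gene tested on arrays A and B in 5 pathway and 10 cell type lists, 1 point per gene, orange where the gene passed with the block, a black bar for the list's median and the number of genes in parentheses. Endothelial points lie between -0.54 and 0.37, while most hypertrophic chondrocyte and osteoclast points are past -1.

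The probe sets most like each of 4 members were found by the Euclidean distance between log2 values centred on their mean over the 4 arrays of a type, a description over 4 arrays that cannot tell shared control from chance. For Nrp2 on array B, chosen for this after its values were seen, they were Sgms2, a sphingomyelin synthase gene (distance 0.29), Ddit4l (0.40) and Fetub (0.41). The nearest, Sgms2, read 677.8 and 732.0 in the wild-type pools against 167.2 and 173.5 in the null pools (log2 fold -1.97, adjusted p = 0.000899 with the block), a pattern of 2 high and 2 low arrays like that of Nrp2. Kdr on array A was nearest to Rab1a (distance 0.01), Macroh2a1 (0.02) and Itgav (0.04), whose log2 folds ran from -0.28 to -0.24 and which did not pass. Vegfa on array A was nearest to Bckdha (0.05), Aamp (0.08) and Exosc8 (0.08), with log2 folds from 0.12 to 0.23 and the highest signal in null replicate 1. Flt1 was brightest on array C, where as labelled it was nearest to Fam227a (0.25), Myom2 (0.27) and Arpc5l (0.28).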

How the data were processed

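Total RNA, 10 µg per sample, was labelled with biotin and hybridised to 3 types of short-oligonucleotide array. The deposited values are intensity signals on a linear scale, made by the authors with MAS5, per the submitters' processing notes (version not given in the sources used here). The 2% trimmed mean of each array was 100.0 to 100.1 and the median signal 37.7 to 60.4. Signals were taken as log2(signal + pseudocount), the pseudocount being the rounded 20th percentile of each type (7, 13 and 10). The 198 control probe sets were left out, and the 23193 probe sets over the 40th percentile of their array on at least 2 of 4 arrays went into limma 3.58.1 under R 4.3.3 (lmFit, then eBayes with a variance trend), 1 fit per type, with Benjamini-Hochberg adjustment over all types at 0.05. The p-values given in the text come from limma, most of them with the block. Without the block they rest on the spread between the pools of a genotype, which the labels call biological replicates. With the block they leave out the part of that spread which same-numbered pools share, and rest on what remains. The block fits borrowed 12.7 (A) and 7.74 (B) prior degrees of freedom from other probe sets, beside the few their own arrays give. Names come from the platform annotation. A list gene was read from its tested probe set of the highest brightness percentile on its array. Genes named are all members, up to 4 per list past the threshold or else the 2 with the lowest p, and the 3 nearest patterns of Vegfa, Kdr and Flt1; others were named after their values were seen. The members, lists and the use of the block for calls were chosen with earlier results of these data known. Promoter windows are RefSeq's, GRCm38.p6. The fit was run on simulated data as a check of the code. The simulated batch shift was shared by both genotypes, as the block assumes, so the run says nothing on whether the block suits these pools. As alternatives served quantile normalization, changed pseudocounts, filters and variance settings, arrays A and B alone, and each pool left out, the last without the block.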

Additional observations from a re-analysis of the deposited data

How the results depend on the processing

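Nrp2 kept its direction under every alternative run, with log2 folds from -1.75 to -1.52, and within scan batches 1 and 2 it was -1.59 and -1.78. Its call needed the replicate block with a variance trend. With the block its fold was -1.69 with adjusted p = 0.00351, 0.00399 with robust variances, 0.00236 on arrays A and B alone and 0.0145 adjusted within array types; quantile normalization with the block gave -1.69 and 0.00305. Alternatives chosen after seeing the data, all with the block, gave -1.69 with no filter and with the 60th percentile filter, and -1.74 and -1.52 with pseudocounts at the 10th and 40th percentiles. Without the block the adjusted p ran from 0.0822 to 0.537, the highest on arrays A and B alone. Member probe sets past the threshold numbered 0 without the block and 1 with it, except 0 with the block and no variance trend.

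Over all probe sets, array C as labelled included, 6 passed without the block and 505 with it. Of the 6, 4 were on A and B, and of the 505, 162 were on C. The counts below take in C too, unless arrays A and B alone are named. Other counts without the block were 11 with quantile normalization, 2 and 12 with pseudocounts at the 10th and 40th percentiles, 11 with the 60th percentile filter, 2 without the variance trend, and 5 to 22 with 1 pool left out. With the block they were 620 with quantile normalization, 488 with robust variances, 343 on arrays A and B alone, 556 adjusted within types, 110 with no filter, 667 with the 60th percentile filter, 511 and 680 with the other pseudocounts, and 6 without the variance trend. Deviations of same-numbered arrays correlated at 0.764 on A, 0.595 on B and 0.056 on C. Within batches 4 of the 13 tested member probe sets turned sign against their mean: Flt1 on B (0.64 in batch 1), the brighter Nrp1 (0.07 in batch 1), Pgf (0.15 in batch 2) and Vegfa on A (-0.05 in batch 2). The fits with 1 pool left out had no block. They set 1 genotype from a single scan batch against the other from both, so batch differences enter the folds. The log2 fold then ran from -0.90 to 0.39 for Flt1 on array B, and from -0.38 to 0.19 for the brighter Nrp1 probe set. For Vegfa it ran from -0.14 to 0.53 on A and from -0.45 to 0.10 on C. In the same way the uncalled folds ran from -0.21 to 0.49 for Aamp, -0.080 to 0.54 for Bckdha, -0.21 to 0.45 for Exosc8, -0.12 to 1.55 for C1qa, -0.63 to 0.025 for Ccn1, -1.29 to 0.22 for Cdh5, -1.24 to 0.44 for Cspg4, -0.46 to 0.17 for Hba-a1, -1.12 to 0.0039 for Pdgfb, -0.20 to 0.53 for Pdpn, -0.17 to 1.41 for Rgs5 and -0.62 to 1.12 for Tfrc. Within scan batches 1 and 2 Cdh5 was -0.32 and -0.75 and C1qa 0.47 and 0.97, without a change of sign. Tfrc did turn, from -0.05 to 0.55. How much of these ranges comes from the batches and how much from single pools was not tested.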
